A study of Mus musculus with 10 samples.

Results

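The cytosolic ribosomal protein genes are described here in germ cells of wild type (WT) mice and of GRTH knock-in (KI) mice. They were chosen by symbol, as the rows that begin with Rpl or Rps and a digit, or that read Rplp0, Rplp1, Rplp2 or Rpsa, without the 9 Rps6k rows, which encode kinases, and without the 6 rows marked -ps. This gave 88 of the 15507 genes listed, on 19 chromosomes. Of these, 77 were core genes, of which 46 encode proteins of the large and 31 of the small subunit. A further 10 were copies (paralogs) of core genes, and Rps19bp1 encodes a protein that binds a ribosomal protein and is not itself one. All 88 had enough reads to be tested.

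RNA was sequenced from germ cells of 5 WT and 5 homozygous KI mice, all 45 days old, with 1 library per mouse. The knocked-in allele is human GRTH with the change R242H, and Ddx25 is the mouse gene of GRTH. KI males are sterile, and their round spermatids do not elongate. The cells were dispersed from whole tubules with collagenase and trypsin, so that each library held spermatogonia, spermatocytes and spermatids together. In such bulk RNA, fewer cells of a type and less RNA per cell cannot be told apart.

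A ribosome is built from ribosomal RNA and a fixed set of proteins, most of which are encoded by a single active gene each and made in equal number. Their mRNAs begin with a run of pyrimidines that places their translation under mTORC1. The X chromosome is silenced in spermatocytes during meiosis, and autosomal copies of several X-linked ribosomal protein genes, Rpl10l and Rpl39l among them, are known to be expressed in male germ cells.

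The values are normalized read counts, which are reads divided by the size factor of the library. Reads on genes numbered 12722086 to 16422347 per library. Ddx25 had normalized counts of 7615, 7782, 5198, 11101 and 9458 in WT 1 to 5 and of 146, 194, 161, 2.88 and 1.84 in KI 1 to 5, in the direction of the labels. The libraries numbered 1 to 3 and those numbered 4 and 5 of either genotype differ in mean read quality in the study's library summary, and several results are also given within each library group. Markers of other testis cells were present in these preparations. Of 9 Leydig cell markers, 6 were up-regulated in KI and 0 down-regulated, with summed normalized counts of 11394 to 20146 in WT and 16276 to 27768 in KI. The 6 calls became 1 without WT 1, 2 without WT 3, 3 without WT 4, KI 1, KI 2 or KI 5, and 1 in libraries 4 and 5 alone. Over all single libraries left out they ranged from 1 to 9. All 9 were called up with the library number as a block, and all 9 when reads were divided by library totals. Of 11 macrophage markers, 7 were up-regulated and 0 down-regulated, with sums of 892 to 1125 in WT and 1309 to 1776 in KI. All 14 elongating spermatid markers were down-regulated, with sums of 338510 to 564656 in WT and 73955 to 111390 in KI. The part of these cells in the results below was not tested, other than where a value is given.

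The 88 genes took 0.718, 0.682, 0.752, 0.858 and 0.666% of the reads on genes in WT 1 to 5, and 0.881, 0.899, 0.953, 0.805 and 0.699% in KI 1 to 5. The mean was 0.735% ± 0.0764 in WT and 0.848% ± 0.0983 in KI (SD, n = 5), and the genotypes overlapped. In libraries 1 to 3 alone the KI mean exceeded the WT mean by 0.194 percentage points, and in libraries 4 and 5 alone it was lower by a difference of −0.00995. After division by the size factors the summed normalized counts were 117230 ± 11298 in WT and 115045 ± 10491 in KI (SD, n = 5). The mean share was thus higher in KI before this scaling and the mean sum was not after it. The size factors bear on every fold change given here: when reads were divided by library totals in their place, the median log2 fold change of all 15389 genes tested moved from 0.03 to 0.25 and that of the 88 genes from −0.02 to 0.21.

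**Figure D1:**
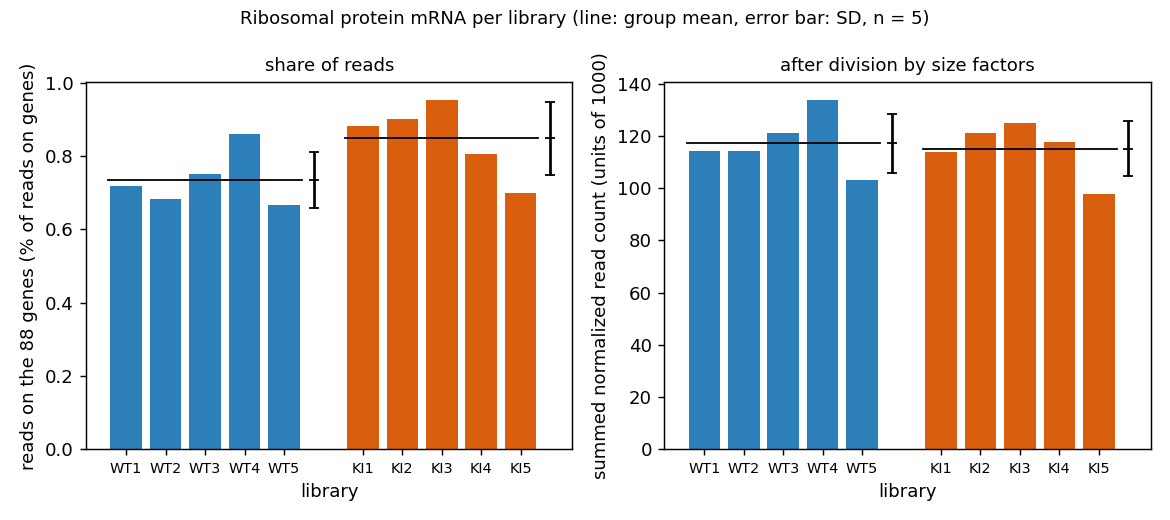
Bars give, for each library, the share of reads on genes taken by the 88 ribosomal protein genes in percent (left) and their summed normalized read count in units of 1000 (right), with the group mean as a line and the SD as an error bar (n = 5). The KI share of 0.699 to 0.953% overlapped the WT share of 0.666 to 0.858%, and the sums overlapped as well.

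Levels differed widely between core genes although their proteins are used in equal number. Per kilobase of transcript, the WT mean had a median of 866 normalized counts over the 77 core genes and ranged from 33.5 to 10379. Rplp0, the base of the stalk that recruits translation factors, was highest with 10379 per kilobase, followed by Rpl32 with 7291 and Rps14 with 6804. The 3 lowest were Rpl39 with 33.5, Rpl37 with 39.4 and Rpl36a with 40.2. All 4 X-linked core genes were among the 6 lowest of the 77, since Rps4x had 139 and Rpl10 had 197 normalized counts per kilobase. Their autosomal copies were high on the same scale: Rpl39l had 4544 per kilobase in WT, Rpl10l 3622, Rps4l 2341 and Rpl36al 2273. Rpl39l thus exceeded 72 of the 77 core genes, Rpl10l exceeded 70, and Rps4l and Rpl36al exceeded 61 each. Such ranks rest on the length of the transcript chosen for each gene. For Rps15a, which ranked 5 from the lowest, it was 5179 bases, of which 393 are coding. Rpl37 has a listed copy too, Rpl37rt on chromosome 5, with 1891 normalized counts per kilobase in WT. GENCODE lists Rpl37rt as a pseudogene, and its sequence was not compared with that of Rpl37. Whether reads of Rpl37 and Rpl37rt can be told apart was thus not tested. The genotypes overlapped in both rows, with 1289.5 ± 164 in WT and 1292 ± 274 in KI for Rpl37rt and 32.9 ± 5.06 in WT and 40 ± 11.9 in KI for Rpl37 (normalized counts, SD, n = 5).

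To show how far the X-linked genes and their copies can be told apart in reads, the coding sequences of the shortest pair are given from GENCODE release M21, 5′ to 3′, with the bases that differ in capitals.
Rpl39: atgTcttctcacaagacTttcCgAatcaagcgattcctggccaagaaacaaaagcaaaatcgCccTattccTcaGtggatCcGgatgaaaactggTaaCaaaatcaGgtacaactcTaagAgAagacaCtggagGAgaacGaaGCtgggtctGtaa
Rpl39l: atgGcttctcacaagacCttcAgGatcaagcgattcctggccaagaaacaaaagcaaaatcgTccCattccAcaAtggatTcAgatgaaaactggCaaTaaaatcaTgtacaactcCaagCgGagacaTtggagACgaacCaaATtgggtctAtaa
The 156 bases differ at 23 positions, and the longest stretch that both transcripts share is 38 bases, against a read length of 150 bases. The coding sequences of Rpl10 and Rpl10l were 84.8% identical with a longest shared stretch of 23 bases, and those of Rpl36a and Rpl36al were 87.9% identical with one of 24 bases. The Rps4l transcript matched the coding sequence of Rps4x at 79.8% of aligned bases, with a longest shared stretch of 38 bases in the transcripts. A read of 150 bases from either gene of these pairs thus spans bases that differ. Other copies are closer: among annotated transcripts, Rps4x had 7, Rpl10 9, Rpl39 9 and Rpl36a 6 copies of at least 95% identity over 80% of the coding sequence, nearly all pseudogenes as for the other core genes, and how the counting divided reads among such copies limits these values.

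The comparison of KI with WT asks which of these genes changed when spermatids failed to elongate. Rps4x, Rpl10 and Rps4l were up-regulated in KI, and no ribosomal protein gene was down-regulated, in limma on all genes with Benjamini-Hochberg adjustment at an adjusted p under 0.05. At an unadjusted p under 0.05, 5 were up and 4 down, against 16.2% up and 18.4% down of all genes. The quasi-likelihood test of edgeR called 3 up and 0 down, and DESeq2 called 4 up, with Rpl39 added, and 0 down. The 3 calls are 3.41% of the 88 genes, whereas 22.9% of all 15389 genes tested were called, 9.65% up and 13.3% down. With the study's fold threshold of 1.5 added, 1 of the 88 was called, against 14.4% of all genes. On library totals 21 of the 88 (23.9%) were up-regulated and 0 down-regulated, while 40.5% of all genes were called, 32.6% up and 7.92% down. In libraries 1 to 3 alone 10 of the 88 were up and 6 down, where 31.3% of all genes were called, and in libraries 4 and 5 alone 1 was up and 2 down, where 11% were called. The median log2 fold change of the 88 was −0.02, against 0.03 over all genes. Of the 88, 86 (97.7%) had a fitted change of less than 1.5-fold, against 82.4% of all genes. The 95% interval of the change lay within 1.5-fold on either side for 69 of the 88 (78.4%), against 54.0% of all genes. Among the 73 autosomal core genes 0 were called (at an unadjusted p under 0.05, 1 up and 3 down), with fitted log2 fold changes from −0.37 to 0.35.

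**Figure D2:**
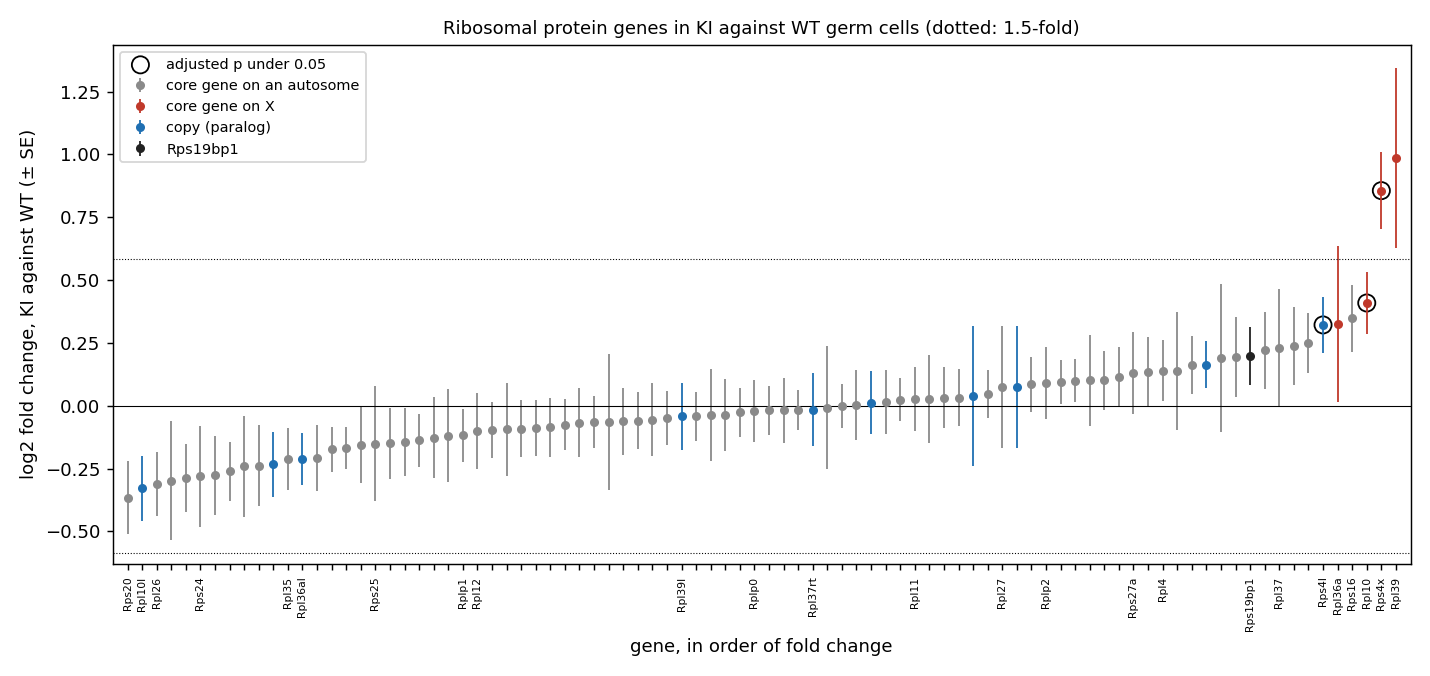
Each point is the fitted log2 fold change of 1 of the 88 genes in KI against WT with its SE (n = 5 libraries per genotype), in order, with 1.5-fold as dotted lines and circles for the 3 genes called and names for some of the genes described. The X-linked core genes stand among the highest 5 and the other genes lie between −0.37 and 0.35.

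Same-numbered libraries of the genotypes correlated with r of 0.105 to 0.462 after removal of genotype means. Other libraries of the same library group correlated with a mean r of 0.134. The labels give the number but state no pairing of mice, and a block by number also takes up the library group. A fit with the number as a block called 10 of the 88 (11.4%), 5 up and 5 down. In this fit 32% of all genes were called, 14.7% up and 17.4% down. Rps4x (adjusted p = 0.000208, limma with the block), Rpl10 (0.012), Rps4l (0.00599), Rpl39 (0.0143) and Rps16 (0.0239) were the 5 up. Rps20 (0.00391), Rps24 (0.00777), Rps15a (0.0134), Rpl10l (0.0306) and Rpl24 (0.036) were the 5 down. Rps16, Rps20, Rps24, Rps15a and Rpl24 are named after their values were seen. Rps20, a protein of the head of the small subunit, had normalized counts of 2392, 2642, 2899, 2272 and 2105 in WT 1 to 5 and of 1688, 2367, 2425, 1851 and 1374 in KI 1 to 5. KI was lower within each of the 5 numbers although the genotypes overlapped, with a log2 fold change of −0.37 ± 0.15 (SE) and an adjusted p of 0.0857 in limma without the block. Rps24, a small subunit protein mutated in Diamond-Blackfan anemia, had 3604, 3401, 3639, 2632 and 1936 in WT and 3110.5, 3041, 2832, 2006 and 1596 in KI. It was again lower in KI within each number, with libraries 4 and 5 below libraries 1 to 3 in both genotypes. On library totals the fitted change of Rps20 was −0.14 and that of Rps24 was −0.05, so that the lower level in KI depends on the scaling in size.

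Rps4x, an X-linked gene of the small subunit (X:102184941-102189391 on mm10), showed the firmest change. Its normalized counts were 121, 188, 140.1, 120.4 and 107 in WT 1 to 5 and 276, 251, 259, 192 and 236 in KI 1 to 5. Every KI library was above every WT library, as was the case for 6.8% of all genes tested. Its log2 fold change was 0.86 ± 0.15 (SE) with an adjusted p of 0.000853 in limma. Within the library groups the change was 0.83 (libraries 1 to 3) and 0.90 (libraries 4 and 5), and it remained called under each of the 24 other processing settings tried. Rps4l, its copy on chromosome 6 (6:148354656-148355596), had 1988, 2045, 2250.1, 2662 and 2092 in WT and 2218, 3036, 2761, 3138 and 2664 in KI. These overlap, and the log2 fold change of 0.32 ± 0.11 (SE) had an adjusted p of 0.0485, which was no longer under 0.05 in 11 of the 24 other settings. RefSeq and GENCODE list Rps4l as a transcribed pseudogene. It lies within Tmtc1 on the other strand, and without a stated strand setting reads of either cannot be told apart.

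Rpl10, a large subunit protein that joins late in assembly near the peptidyl transferase center (X:74270816-74273135), had 142, 161, 170.3, 148 and 164 in WT and 232, 204, 252.2, 173 and 190.4 in KI. The lowest KI library was just above the highest WT library. The log2 fold change was 0.41 ± 0.12 (SE) with an adjusted p of 0.0256 in limma. It was 0.54 in libraries 1 to 3 (adjusted p = 0.00515) and 0.22 in libraries 4 and 5 (adjusted p = 0.548), and the call was also lost without WT 1, WT 4, KI 1 or KI 3. Rpl10l, its copy on chromosome 12 (12:66283379-66284401), which is needed for male meiosis, had 2862, 3448, 3626, 4901 and 3691 in WT and 2760.1, 3227, 3271, 2882 and 2467 in KI. Its log2 fold change was −0.33 ± 0.13 (SE) with an adjusted p of 0.0806, and −0.10 in libraries 1 to 3 against −0.67 in libraries 4 and 5 (adjusted p = 0.0199). Parent and copy thus lay on opposite sides of 0 on this scale. On library totals Rpl10l was at −0.10 and Rpl10 at 0.64.

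Rpl39, a small protein lining the exit tunnel of the large subunit (X:37082518-37085222), had 28.2, 19.7, 29, 20.1 and 5.65 in WT and 41.6, 30.4, 53.5, 31.7 and 31.3 in KI. No KI library was below a WT library, at these low levels. Its log2 fold change of 0.99 ± 0.36 (SE) was the highest of the 88 and had an adjusted p of 0.0604 in limma. In DESeq2 the log2 fold change of Rpl39 was 0.89 with an adjusted p of 0.0318. Leaving out WT 5 lowered the limma value. It was then 0.60 (adjusted p = 0.0847, limma). Within the library groups the change was 0.67 (libraries 1 to 3) and 1.46 (libraries 4 and 5). Rpl39l, its copy on chromosome 16 (16:10170228-10174911), had 3238, 3325, 3286, 4967 and 3474 in WT and 2988, 3299.9, 3318, 4539 and 3546 in KI. The groups overlapped fully, with a log2 fold change of −0.04 ± 0.13 (SE) and a 95% interval of −0.33 to 0.24, where that of Rpl39 was 0.22 to 1.75. Rpl36a, a large subunit protein near the exit site for transfer RNA (X:134585654-134588062), had 11.5, 13.9, 26.6, 30.1 and 15.1 in WT and 28.3, 21.7, 36, 18.3 and 15.6 in KI. These overlap, and the log2 fold change of 0.33 ± 0.31 (SE) did not pass the test (adjusted p = 0.504). Rpl36al on chromosome 12 ranged from 1109.9 to 1377 in WT and from 887 to 1215 in KI (log2 fold change −0.21 ± 0.10, SE, adjusted p = 0.168).

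**Figure D3:**
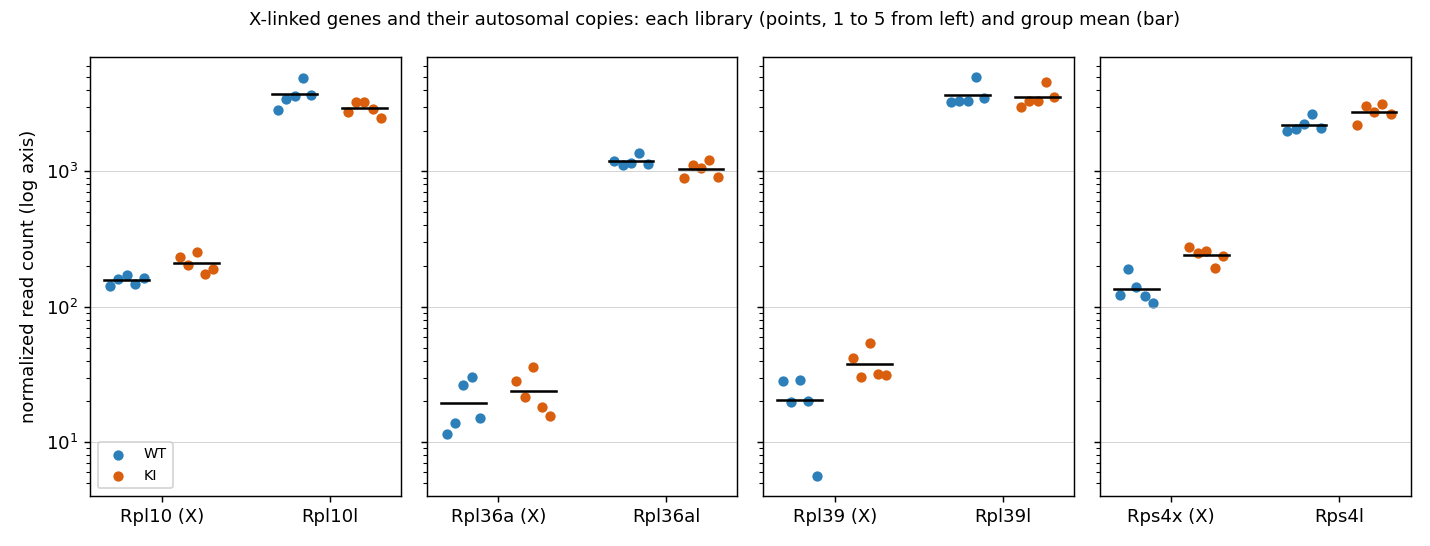
Points are the normalized read counts of libraries 1 to 5 on a log axis and bars the group means, for the 4 X-linked core genes and their autosomal copies in WT and KI. The lowest value of a copy is 887 and the highest of an X-linked gene is 276, and Rpl10, Rpl39 and Rps4x show no overlap between genotypes.

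The ratio of a copy to its parent gene does not depend on the scaling of the libraries. Rpl10l had 20.1, 21.5, 21.3, 33.0 and 22.5 reads per read of Rpl10 in WT 1 to 5 and 11.9, 15.8, 13.0, 16.7 and 13.0 in KI 1 to 5. All 5 KI ratios were below all 5 WT ratios, with a difference of −0.74 in the log2 ratio. This gave p = 0.00794 in the exact two-sided permutation test over all arrangements of the libraries, the smallest that 5 against 5 libraries allow, and 0.0556 after adjustment over the 7 pairs. The ratio of Rpl39l to Rpl39 differed by −1.08 in log2 (exact permutation p = 0.0397, adjusted 0.139), but by −0.68 without WT 5. The ratio of Rps4l to Rps4x differed by −0.54 (exact permutation p = 0.0714, adjusted 0.167) and that of Rpl36al to Rpl36a by −0.56 (exact permutation p = 0.143, adjusted 0.25). In the last pair libraries 1 to 3 differed by −0.98 and libraries 4 and 5 by 0.08. None of the 7 ratios passed the adjusted threshold of 0.05. Per length, Rpl10l had 18.5 times the reads of Rpl10 in WT and 10.98 times in KI. Copies still held most reads of each X-linked pair in KI: the Rpl10l share of the pair was 95.8% in WT and 93.3% in KI, and that of Rps4l was 94.1% in WT and 91.8% in KI.

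The other 3 of the 7 pairs tested have autosomal parents. Rpl32l, Rpl37rt and Rps27rt were not tested as ratios. Rpl32l had normalized counts of 34.4 ± 8.23 in WT and 36.7 ± 10.1 in KI (SD, n = 5). The log2 ratio of Rpl7l1, a nucleolar relative of Rpl7, to Rpl7 differed by 0.06 between genotypes (exact permutation p = 0.579). That of Rpl22l1 to Rpl22 differed by −0.11 (exact permutation p = 0.698), and that of Rps27l to Rps27 by 0.02 (exact permutation p = 0.913). Per length of transcript, Rpl22l1 had 3.66 times the reads of Rpl22 in WT and 3.31 times in KI, and Rps27l had 1.42 times those of Rps27 in WT and 1.39 times in KI. Rpl7l1 had 0.0922 times those of Rpl7 in WT and 0.0953 times in KI. The Rps27rt row lies on the locus of Rps27 in the deposited table, whereas RefSeq places the gene elsewhere. Its counts of 133 to 372 in WT and 141 to 373 in KI follow those of Rps27 and are not a separate measurement.

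Other X-linked genes served to set the X-linked ribosomal protein genes in context. Of 650 X-linked genes tested, 117 (18.0%) were up-regulated in KI and 56 (8.62%) down-regulated, with a median log2 fold change of 0.17. In libraries 1 to 3 alone 160 were up and 72 down (median 0.26), and in libraries 4 and 5 alone 43 were up and 45 down (median 0.05). Of 14699 autosomal genes tested, 1365 (9.29%) were up-regulated and 1987 (13.5%) down-regulated, with a median of 0.02. In libraries 1 to 3 alone 1887 of these were up and 2686 down (median 0.02). In libraries 4 and 5 alone 484 were up and 1125 down (median 0.02), so that up calls were the fewer there, unlike the near equal counts on X. The median of the 4 X-linked ribosomal protein genes was 0.63. The 9 markers of Leydig cells and the 11 of macrophages had medians of 0.69 and 0.65. Other somatic lists varied, with medians of 0.12 for Sertoli cell, 0.01 for peritubular myoid, 0.46 for endothelial and 0.62 for erythroid markers. Somatic cells express the X-linked parents, and their part in the higher Rps4x and Rpl10 counts was not tested.

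A pair of short motifs in the start regions of the ribosomal protein genes was counted in RefSeq promoters on GRCm38.p6 of 300 bases, 250 before and 50 after the start. A promoter at the deposited start was found for 66 of the 88 genes. The letters CTTTC, on the strand of the gene and within 50 bases of the start, were found in 30 of the 66 (45.5%) and in 12.8% of all 32851 promoters. The letters CCGGAAG on either strand were found in 25 (37.9%) and in 8.86% of all. Both were found in 15 (22.7%) and in 0.989% of all, and neither in 26 (39.4%) and in 79.4% of all. Examples from 90 bases before to 30 after the start, 5′ to 3′ with matches of either motif in capitals, show an X-linked gene and its copy that hold both motifs in their windows, an X-linked pair that holds neither, Rps4x, and Rpl35, an autosomal gene that holds both.
Rpl39 (chrX:37085193-37085312, minus strand): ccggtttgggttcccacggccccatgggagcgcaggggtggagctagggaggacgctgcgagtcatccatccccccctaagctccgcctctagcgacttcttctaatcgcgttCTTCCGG
Rpl39l (chr16:10170138-10170257, plus strand): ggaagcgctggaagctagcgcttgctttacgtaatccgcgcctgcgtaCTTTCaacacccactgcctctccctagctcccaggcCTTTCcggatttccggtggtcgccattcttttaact
Rpl10 (chrX:74270726-74270845, plus strand): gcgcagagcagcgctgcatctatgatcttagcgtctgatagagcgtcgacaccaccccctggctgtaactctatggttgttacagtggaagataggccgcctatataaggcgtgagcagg
Rpl10l (chr12:66284372-66284491, minus strand): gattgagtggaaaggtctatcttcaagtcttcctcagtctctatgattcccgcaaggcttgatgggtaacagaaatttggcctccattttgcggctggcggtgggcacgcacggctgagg
Rps4x (chrX:102189362-102189481, minus strand): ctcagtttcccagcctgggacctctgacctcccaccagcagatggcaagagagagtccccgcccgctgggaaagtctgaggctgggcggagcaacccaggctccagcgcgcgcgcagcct
Rpl35 (chr2:39005102-39005221, minus strand): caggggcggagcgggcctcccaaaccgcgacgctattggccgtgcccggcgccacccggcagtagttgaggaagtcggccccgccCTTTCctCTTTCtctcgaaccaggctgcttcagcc
Some matches counted for Rpl39, Rpl39l and Rpl35 lie outside the stretch printed. The genes with CTTTC did not move apart from those without it: the median log2 fold change was −0.02 for the 30 with it and −0.02 for the 36 without it. Rps4x and Rpl10, which were called, hold neither motif in these windows.

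By role in the ribosome, Rps4x and Rpl10 were the called core genes. The stalk, which recruits elongation factors, had 0 of 4 genes called. Rplp0 had 14095 ± 1733 in WT and 13926 ± 1960 in KI (SD, n = 5, log2 fold change −0.02 ± 0.12, SE). Rplp1 was at −0.12 ± 0.11, Rplp2 at 0.09 ± 0.14 and Rpl12, which anchors the stalk, at −0.10 ± 0.15 on the log2 scale. Rpl5 and Rpl11, which carry 5S ribosomal RNA and can bind Mdm2, were at −0.07 ± 0.10 and 0.03 ± 0.13 and were not called. Around the exit tunnel 0 of 6 were called: beside Rpl39, Rpl4 was at 0.14 ± 0.12, Rpl23a at 0.10 ± 0.18, Rpl17 at −0.14 ± 0.14, Rpl35 at −0.21 ± 0.12 and Rpl26 at −0.31 ± 0.13. Of these, Rpl26 had 772, 679.8, 688, 949 and 697 in WT and 756, 677, 594, 523 and 512 in KI, with an adjusted p of 0.0947 over all libraries and 0.029 in libraries 4 and 5 alone. Of 7 genes along the mRNA path of the small subunit 0 were called, with a median of −0.06. Of 9 genes mutated in Diamond-Blackfan anemia, an inherited failure of red cell production, 0 were called, with a median of −0.05. At an unadjusted p under 0.05, the genes that passed in these sets were Rpl39 and Rpl26 at the tunnel, and 0 in the others. With the replicate block 1 tunnel gene (Rpl39) was up and 1 Diamond-Blackfan anemia gene (Rps24) down. In libraries 1 to 3 alone 1 stalk gene and 2 of the mRNA path were up and 1 Diamond-Blackfan anemia gene was down. Rps19bp1 was at 0.20 ± 0.11 (adjusted p = 0.245).

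More ribosomal protein genes differed between the library groups than between genotypes. In a fit with both terms, 10 of the 88 were called between genotypes, 5 up and 5 down, where 31.3% of all genes were called, 14.2% up and 17.2% down. In the same fit 30 of the 88 genes (34.1%) differed between libraries 4 and 5 and libraries 1 to 3 at an adjusted p under 0.05 in limma. Of the latter, 22 were lower and 8 higher in libraries 4 and 5. Over all genes 21.5% differed, 11.7% lower and 9.77% higher. For 53 of the 88 the fitted difference between library groups was larger in size than that between genotypes. The median size was 0.18 on the log2 scale between library groups and 0.11 between genotypes, whereas over all genes it was 0.19 and 0.21. Of the 10, Rps20 and Rps24 were also called between library groups, whereas Rps4x, Rpl10 and Rps4l were not. The genotype effect differed between the library groups for 0 of the 88 (lowest adjusted p = 0.103, with 17 at an unadjusted p under 0.05, where 16.1% of all genes were) and for 0.247% of all genes, in limma with an interaction term.

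The direction between library groups varied from gene to gene. Rps25, a small subunit protein used by viral internal ribosome entry sites, had 1495, 1634, 1608, 1095 and 768 in WT and 1435, 1500.0, 1384, 895 and 733 in KI. Libraries 4 and 5 were below libraries 1 to 3 in both genotypes, by −0.80 ± 0.10 on the log2 scale (SE, adjusted p = 5.8e-05, limma). Rps24 differed by −0.70 ± 0.09, Rpl21 by −0.67 ± 0.10 and Rpl22 by −0.63 ± 0.09. Rpl27, a large subunit protein, went the other way with 479, 551, 572, 1215 and 919 in WT and 554, 633, 616, 1047 and 966 in KI. Libraries 4 and 5 were above libraries 1 to 3 in both genotypes, by 0.87 ± 0.10 (SE, adjusted p = 4.3e-05, limma). Rpl30 was also higher there, by 0.79 ± 0.12. These genes were named after their values were seen. The median GC content of the transcripts was 53.0% for the 8 genes higher in libraries 4 and 5, 49.2% for the 22 lower and 51.5% for the others. The part of GC content in these differences was not tested.

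**Figure D4:**
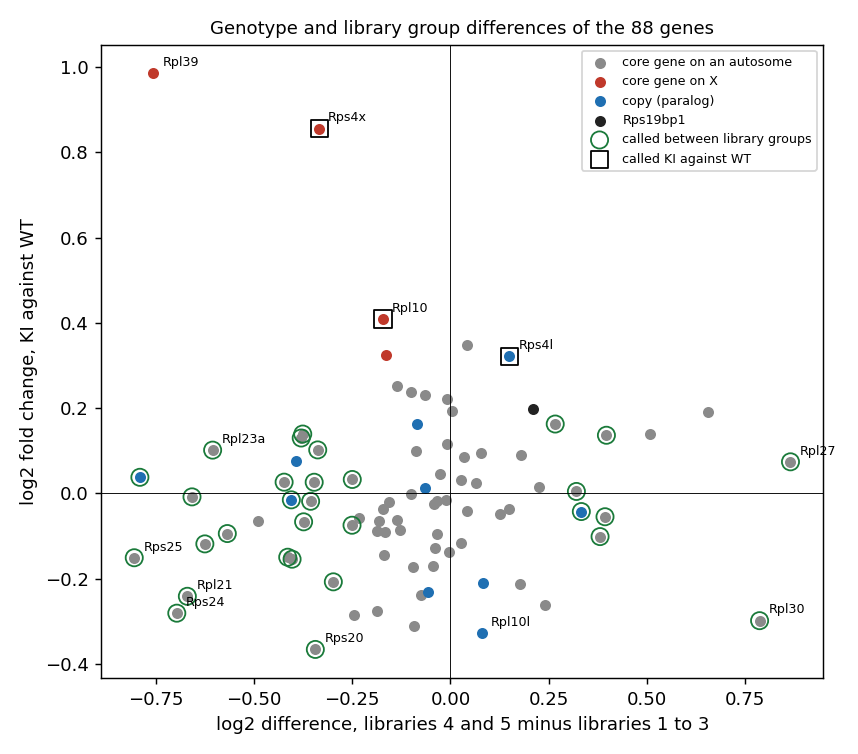
Each of the 88 genes is placed by its log2 difference between libraries 4 and 5 and libraries 1 to 3 (horizontal) and its log2 fold change in KI against WT (vertical), with calls outlined. The 30 genes called between library groups span −0.80 to 0.87 on the horizontal axis, and none is among the 3 genes called between genotypes in the fit without the library group.

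Fau and Rack1 encode ribosomal proteins but fall outside the symbol rule, and they were compared in the same fit. Fau was at −0.23 ± 0.11 (adjusted p = 0.157) and Rack1, a scaffold on the small subunit, at 0.33 ± 0.12 (adjusted p = 0.0543).

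Related gene lists were counted in the same way, beside 9.65% of all genes called up and 13.3% called down. On library totals these shares of all genes were 32.6% up and 7.92% down. Of 78 mitochondrial ribosomal protein genes, 2 were up-regulated and 3 down-regulated, with a median log2 fold change of 0.04. On library totals 28 were up and 0 down, with a median of 0.27. Those called under the size factors included Mrps7 (0.44 ± 0.12) and Mrpl9 (0.35 ± 0.10) up and Mrpl1 (−0.48 ± 0.11) and Mrpl47 (−0.40 ± 0.12) down. Of 20 other mRNAs that start with a pyrimidine run, 0 were up-regulated and 6 down-regulated, with a median of −0.13. Among them Eef1d, a subunit of the exchange factor of elongation factor 1, fell from 11544 ± 1614 to 4747 ± 439 (SD, n = 5, log2 fold change −1.28 ± 0.11, SE). Of 82 ribosome biogenesis genes, 4 were up-regulated, such as Dhx37 (0.47 ± 0.12) and Utp15 (0.42 ± 0.11), and 4 down-regulated, such as Rpf2 (−1.01 ± 0.13), which loads 5S ribosomal RNA, and Wdr12 (−0.48 ± 0.08). On library totals 34 of these were up and 2 down. Of 14 RNA polymerase I genes, Cd3eap was up-regulated (0.67 ± 0.13) and Znrd1 down-regulated (−0.70 ± 0.11). Of 18 mTORC1 and pyrimidine-run regulators, 0 were called, with a median of 0.05.

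Markers of the cell types were counted in the same fit. Of 12 spermatogonia markers, Ccnd2 (1.39 ± 0.15) and Lin28a (0.65 ± 0.16) were up-regulated and Gfra1 (−0.48 ± 0.14) down-regulated. Of 16 spermatocyte markers, Pou5f2 (0.36 ± 0.10) was up-regulated and Spo11 (−0.41 ± 0.12) down-regulated. Of 12 round spermatid markers, 4 were down-regulated, such as Catsper3 (−0.58 ± 0.10) and Spaca1 (−0.53 ± 0.12). The elongating spermatid markers fell furthest for Prm2 (−3.30 ± 0.25) and Tssk6 (−3.02 ± 0.21). Of 12 Sertoli cell markers, Gata4 (0.42 ± 0.14) was up-regulated, a call lost when any 1 of 8 of the 10 libraries was left out. The Sertoli cell list differed between library groups, with 5 up and 0 down in libraries 1 to 3 (median 0.38) and 0 up and 2 down in libraries 4 and 5 (median −0.34). Insl3 (0.82 ± 0.19) and Cyp17a1 (0.70 ± 0.21) rose among Leydig cell markers, and C1qc (0.96 ± 0.20) and C1qa (0.90 ± 0.23) among macrophage markers. Peritubular myoid, endothelial and erythroid markers had 2 of 6, 2 of 5 and 1 of 5 up-regulated and 1, 0 and 1 down-regulated. They included Des (1.04 ± 0.34), Acta2 (0.78 ± 0.20), Actg2 (−1.37 ± 0.15), Vwf (1.05 ± 0.21), Cdh5 (0.66 ± 0.17), Hba-a1 (0.74 ± 0.21) and Alas2 (−0.63 ± 0.20). All of these are log2 fold changes with SE from limma at an adjusted p under 0.05.

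The counts of single ribosomal protein genes carry the limit of their many copies in the genome. Of 85 genes with a coding sequence searched, 79 had at least 1 annotated transcript of another gene with 95% identity or more over 80% of the coding sequence, with a median of 5 and up to 57, for Rpl21. Of the 590 such copies, 565 were pseudogenes. The 6 -ps rows held reads equal to 2.71 to 3.12% of those on the 88 genes, and none was called. Rpl14-ps1 had 889 ± 103 in WT against 372 ± 31.6 for Rpl14 itself, Rplp2-ps1 had 1128 ± 105 against 721 ± 144 for Rplp2, and Rpl34-ps1 had 759 ± 70.7 against 154 for Rpl34, whose row it overlaps on the same strand (SD, n = 5). These are counts per row, not per length, and the division of reads between such rows is uncertain. In all, 13 of the 88 rows overlapped another listed gene.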

How the data were processed

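The members and lists were chosen with earlier results of these data known. The authors trimmed paired-end reads of 150 bases, mapped them to mm10 by STAR, assigned them to RefSeq_v91 genes by Partek's E/M quantification, divided by DESeq2 size factors and deposited this normalized signal for 10 libraries. No column was left unassigned. The size factors of the reads recovered here (100% whole within 0.1, under 5000 reads) differed from the value of 1 read by at most 2.48e-06 percent. Reads on genes numbered 12722086 to 16422347 per library, which limits low genes by counting error.

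limma (version 3.58.1, R 4.3.3) with a variance trend was run on log2(value + 1), so that fold changes of low genes are understated, over 15389 genes passing filterByExpr of edgeR (version 4.0.16) by genotype, with Benjamini-Hochberg adjustment over all of them. Intervals use the moderated t distribution. For pair ratios an exact permutation test, two-sided, was used, adjusted over 7 pairs. Alternatives were edgeR, DESeq2 (version 1.42.0), other scalings, filters, pseudocounts and thresholds, the library groups, a replicate block and each library left out. The contrast between library groups, its interaction with genotype and the set of X-linked genes were added after seeing the data. Scripts were tested on simulated data.

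Same-numbered libraries correlated with r of 0.105 to 0.462 after removal of genotype means. The number, taken from the labels, was used as a block in an alternative fit, although the labels state no pairing of mice. Other libraries of the same library group correlated with a mean r of 0.134. Replicates differed beyond sampling noise (chi-square per degree of freedom 2.68 to 46.7).

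The genes named were all pairs of copy and parent, X-linked core genes, the stalk, 5S and tunnel genes, Rps19bp1, Ddx25, up to 5 called members in each direction with a mean of at least 100, the 3 highest and 3 lowest core genes per kilobase, and the 2 largest calls in each direction of other lists. The deposited end coordinates lie 1 base past the RefSeq end and are given less 1. Transcript lengths and copies came from GENCODE release M21 (blastn 2.17.0). GENCODE lists Rpl32l and Rpl37rt as pseudogenes and RefSeq as coding. Some genes are not reported here. The cell fraction was not sorted, and no protein data were analysed here.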

Additional observations from a re-analysis of the deposited data

Results flagged for a closer look

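Of 132 groups of 5 libraries tested, for the named genes and for the share of reads, 6 had a library far from the others by Dixon's test, which chance alone gives in about 1 of 20 groups. Rpl39l had 4967 normalized counts in WT 4, against 3238 to 3474 in the other WT libraries. Rps14 had 5887 in WT 4, against 3397 to 3919. Cd3eap had 155 in KI 3, against 122 to 129.7. Gata4 had 258 in KI 4, against 343 to 355. Acta2 had 27.7 in WT 2, against 50.2 to 55.6. Hba-a1 had 288 in KI 5, against 165 to 185.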

How the results depend on the processing

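Rps4x kept its call under all 24 settings tried, whereas Rpl10 lost it in 5 and Rps4l in 11. Rpl39, not called as reported, was called up in 9 of 23 settings. Rpl10l, also not called as reported, was called down in 4 of 24. Genes up-regulated and down-regulated among the 88 numbered 3 and 0 as reported. They numbered 21 and 0 on library totals, 15 and 0 on totals without ribosomal protein genes and the 50 genes of most reads, 6 and 0 on upper quartiles, 5 and 5 with a replicate block, 5 and 5 with a library group term, 10 and 6 in libraries 1 to 3 alone, 1 and 2 in libraries 4 and 5 alone, and 1 and 0 both at an adjusted p under 0.01 and with a fold change of at least 1.5. Of all genes, 32.6% were up and 7.92% down on library totals. Such shares are not given here for upper quartiles, totals without the top genes, an adjusted p under 0.01 or single libraries left out. The counts in those settings can thus not be set against all genes. Leaving out 1 library gave 1 to 3 up and 0 to 2 down among the 88. The lowest count up, 1, was without KI 3, which also gave 1 down, and WT 5 left out gave the 2 down. The counts were within 1.5 times with edgeR, TMM factors, DESeq2, no filter, a mean of at least 100 and pseudocounts of 0.1 and 10. The median log2 fold change of the 88 was 0.21 on library totals and 0.19 on totals without ribosomal protein genes and the top genes, by the construction of the scalings, and −0.07 to 0.02 without single libraries.

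Genes of the other lists called up and down numbered 29 and 36, and 109 and 22 on library totals, 95 and 22 on totals without the top genes, 49 and 27 on upper quartiles, 45 and 44 with the replicate block, 7 and 30 in libraries 4 and 5 alone, 11 and 24 at an adjusted p under 0.01 and 19 and 21 with the fold threshold. They numbered 20 to 30 and 30 to 36 without single libraries. For these lists too, the settings without a share of all genes limit what the counts show. No pair ratio changed its call. With the replicate block the pair of Rpl10l and Rpl10 had an exact permutation p of 0.0625, the smallest that design allows, and 0.1 and 0.333 are the smallest in libraries 1 to 3 and in libraries 4 and 5, so that these say nothing of stability. Without single libraries the log2 ratios differed by −0.80 to −0.61 for Rpl10l, −1.29 to −0.68 for Rpl39l, −0.69 to −0.41 for Rps4l and −0.71 to −0.39 for Rpl36al. The share of reads differed by 0.0858 to 0.149 percentage points without single libraries and by −0.00995 in libraries 4 and 5. The causes were not tested.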
